A study of Mus musculus with 2 samples.

Results

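The genes described here encode the enzymes of the citric acid cycle, the machinery that brings pyruvate into it, the shuttles that carry cytosolic reducing equivalents to mitochondria, and the enzymes that refill the cycle. The list names 36 genes, and each gene was read from the probe set that carried its symbol alone and had the highest mean of both arrays. A value was obtained for 35 of the 36 genes, out of 18194 genes on the array read the same way, and Mpc2 was not analysed here because no probe set carried its symbol. The samples were skeletal muscle of the diaphragm from C57/BL6 mouse embryos at stage E18.5, 1 array labelled RP58+/+ (wild type) and 1 array labelled RP58-/- (knockout). RP58, now named Zbtb18, is a zinc finger transcriptional repressor. The comparison asks how transcripts of muscle differ without it. The labels do not say how the allele was made, whether deletion was limited to muscle, or how many embryos gave RNA. The study's design describes dissected muscle, whereas the extraction label speaks of a culture.

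Pyruvate from glycolysis enters mitochondria through a carrier and is converted to acetyl-CoA by the pyruvate dehydrogenase complex, which kinases switch off and phosphatases switch on. The citric acid cycle oxidises acetyl-CoA and passes electrons to the respiratory chain, so its enzymes are abundant in muscle fibres that contract for long periods, such as those of the diaphragm. The malate-aspartate and glycerol phosphate shuttles move electrons from cytosolic NADH into mitochondria, and pyruvate carboxylase and the malic enzymes add carbon to the cycle or draw it off.

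All values are deposited log2 signals, and each difference is the array labelled RP58-/- minus the array labelled RP58+/+. With 1 array per genotype, no spread between embryos could be estimated and no test was run. A gene was instead counted as lower or higher when it differed by 1.5-fold or more (0.58 on the log2 scale) and its mean signal lay at or above log2 5.52, the 40th percentile of all probe sets. All 35 genes passed that floor. The only repeat measurement was that between probe sets of the same gene, whose differences had a pooled SD of 0.28 over 5677 genes. This SD covers neither embryos nor dissection nor hybridisation.

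Some properties of the arrays bear on every value. The probe set of Zbtb18 read 8.91 on the array labelled RP58+/+ and 9.21 on the array labelled RP58-/-, and where it lies relative to the deleted part is not known from the labels, so it did not check the genotypes. Xist, the RNA of the inactive X chromosome, read 11.47 and 6.96, so a sex-linked signal differed together with genotype. The 24 poly-A spike-in probe sets had a median difference of -0.75. Scaling to them would add 0.75 to every difference, and it would turn the sign of each gene given here as lower by less than that, so all differences are relative to the median gene, which was at -0.003. Of 15 skeletal muscle fibre markers, 14 passed the size rule downwards, and their median was -1.42. Fewer muscle fibres in the sample and less RNA per fibre cannot be told apart in bulk tissue.

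The enzymes of pyruvate oxidation and most of the cycle were lower on the array labelled RP58-/-. Of the 35 genes, 13 (37.1%) were lower and 1 (2.86%) was higher by the size rule. Over all 14094 genes above the floor, 6.51% were lower and 3.83% were higher. The median difference of the 35 genes was -0.48, and 29 of them (82.9%) lay below 0, against 50.4% of all genes. The middle 50% of the 35 differences ran from -0.83 to -0.10, and that of all genes from -0.21 to 0.18. Of the lower genes, Suclg1 at -0.66 was nearest to the size rule, and Gpd1 at -0.55 was the nearest gene that did not reach it.

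**Figure D1:**
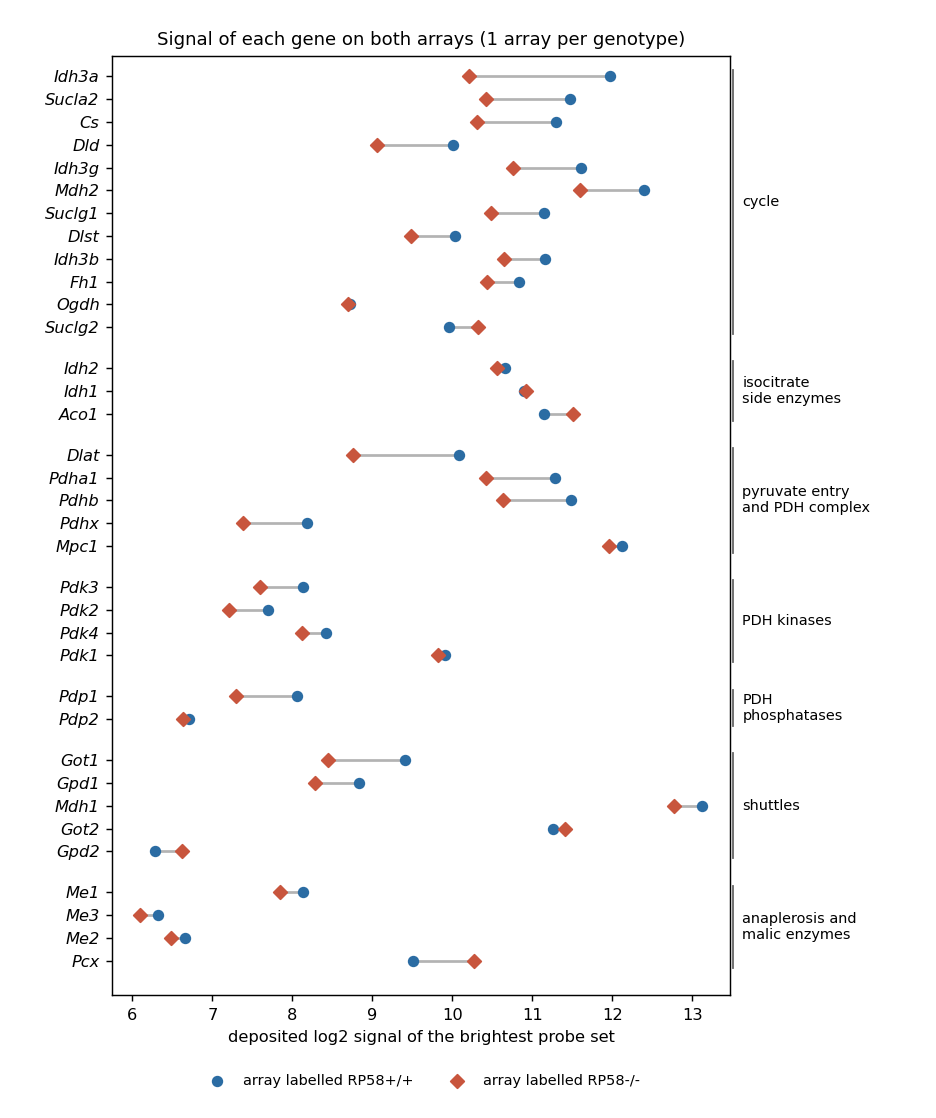
Deposited log2 signal (x axis) of the brightest probe set of each of 35 genes (rows, grouped by role) on the array labelled RP58+/+ (blue circles) and the array labelled RP58-/- (red diamonds), 1 array each. The diamonds lie left of the circles for 29 genes, with the widest gap at Idh3a (11.98 and 10.21), and Pcx has the widest gap in the other direction (9.51 and 10.27).

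**Figure D2:**
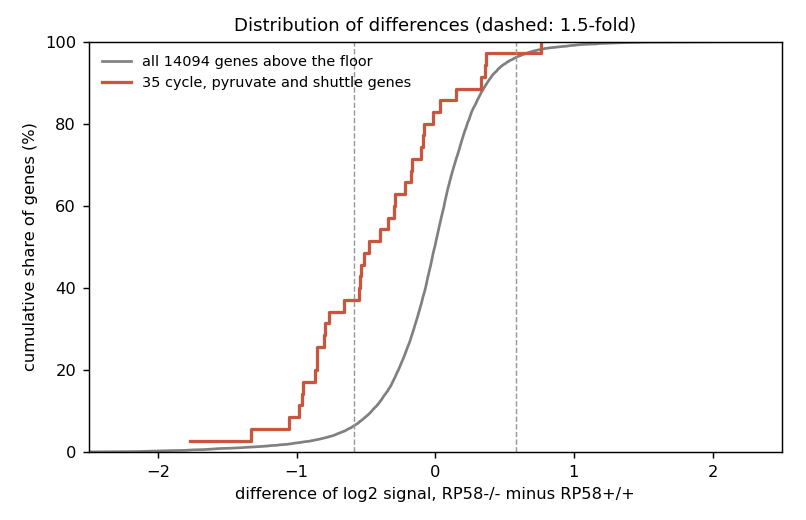
Cumulative share of genes (y axis, percent) against the difference of log2 signal (x axis, RP58-/- minus RP58+/+) for the 35 genes (red) and all 14094 genes above the floor (grey), with dashed lines at 1.5-fold; the most extreme genes lie beyond the x axis. The red curve lies left of the grey curve over most of the range, with medians of -0.48 and -0.003.

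All 4 genes specific to the pyruvate dehydrogenase complex were lower, against 6.51% of all genes. Dlat encodes the acetyltransferase that forms the core of the complex, and its brightest probe set read 10.08 on the array labelled RP58+/+ and 8.76 on the array labelled RP58-/-, a difference of -1.33 (2.51-fold lower). The other probe sets of Dlat differed by -1.27 and -1.41, so its 3 probe sets lay within a narrow range. Pdha1 and Pdhb encode the alpha and beta subunits of the decarboxylase that starts the reaction. Pdha1 read 11.29 and 10.42 (-0.87) and Pdhb read 11.48 and 10.63 (-0.85), each with a further probe set below 0, at -0.76 and -0.64. Pdhx, the protein that docks the last enzyme of the complex, read 8.18 and 7.38 (-0.80) on its only probe set. Dld encodes that last enzyme, a dehydrogenase shared with the other 2-oxoacid dehydrogenases, and it read 10.01 and 9.06 (-0.95). Its other probe set, at 4.29 and 4.34, was under the floor, and averaging both took Dld to -0.45, within the size rule. With Dld included, the 5 subunit genes ran from -1.33 to -0.80.

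Mpc1, a subunit of the pyruvate carrier in the inner membrane, did not share this difference in size. On its only probe set Mpc1 read 12.13 and 11.95, a difference of -0.17 that is smaller than the probe set SD of 0.28. Without a value for Mpc2, this does not describe the whole carrier. The difference of Dlat minus that of Mpc1 was -1.15.

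Of the 6 kinases and phosphatases of the complex, only the phosphatase Pdp1 passed the size rule (16.7%, against 6.51% of all genes lower). A count of 1 among so few genes is not a result about the group. The kinases phosphorylate and inactivate the complex, and all 4 lay below 0 with none past the size rule and a median of -0.39. Pdk2, the kinase found in most tissues, read 7.69 and 7.21 (-0.48). Pdk3 read 8.13 and 7.60 (-0.53), and Pdk4, the kinase that fasting raises in muscle, read 8.42 and 8.12 (-0.30). Pdk1, the kinase that hypoxia raises, read 9.90 and 9.82 (-0.09) on its brightest probe set, and its other probe sets above the floor were at -0.53 and 0.11. The phosphatases reactivate the complex and were unlike each other. Pdp1, the calcium-stimulated phosphatase of muscle, read 8.06 and 7.29 (-0.77, 1.7-fold lower), with another probe set at -1.03. Pdp2 read 6.71 and 6.63 (-0.08), a weak signal just above the 60th percentile of all probe sets (6.57).

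In the cycle itself, 7 of 12 genes (58.3%) were lower and 0 higher, against 6.51% and 3.83% of all genes. A count of 0 higher among so few genes is not a result about the cycle. Of the 12 genes, 11 lay below 0, where 50.4% of all genes lay, and the median was -0.73. Cs encodes citrate synthase, which joins acetyl-CoA to oxaloacetate and serves as a common measure of mitochondrial content. It read 11.30 on the array labelled RP58+/+ and 10.31 on the array labelled RP58-/- (-0.98, 1.98-fold lower), and its other probe sets were at -0.91 and -0.88. All 3 probe sets of Cs thus gave nearly the same difference.

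The NAD-linked isocitrate dehydrogenase held the lowest gene of the 35. Idh3a, its catalytic alpha subunit, read 11.98 on the array labelled RP58+/+ and 10.21 on the array labelled RP58-/-, a difference of -1.77 (3.41-fold lower). This placed Idh3a at rank 81 from the lowest of 14094 genes. Its other probe sets were at -1.76, -1.38 and -0.28, all below 0. The brightest probe set and those at -1.76 and -0.28 are of kinds (_a_at, _s_at and _x_at) that can match several transcripts, and the remaining probe set was the one at -1.38. Idh3g, a regulatory subunit, read 11.61 and 10.75 (-0.86), with a further probe set at -0.61. Idh3b, the beta subunit, read 11.15 and 10.64 (-0.51) on its brightest probe set, and its other probe sets ran apart, at 0.30 and -1.52. The probe set at -1.52 read 6.55 on the array labelled RP58+/+ and 5.03, under the floor, on the array labelled RP58-/-, so no single value describes Idh3b.

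The isocitrate enzymes that do not feed the respiratory chain through NADH had a median of 0.03 over 3 genes, and none passed the size rule. Idh2, the NADP-linked enzyme of mitochondria, read 10.66 and 10.56 (-0.10). Idh1, its cytosolic counterpart, read 10.89 and 10.92 (0.03), with a further probe set at -0.19. Aco1, the cytosolic aconitase that also acts as an iron regulatory protein, read 11.15 and 11.51 (0.37), and its other probe sets were at 0.24 and 0.17, so all 3 lay above 0. The difference of Idh3a minus that of Idh2 was -1.66.

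The next steps of the cycle were uneven. Ogdh, the decarboxylase of the 2-oxoglutarate dehydrogenase complex, read 8.72 and 8.70 (-0.02), and its other probe set was at -0.02 too. Dlst, the transferase at the core of that complex, read 10.03 and 9.49 (-0.54), with a dimmer probe set at 0.11. Together with the shared Dld at -0.95, only 1 of the 3 genes of this complex passed the size rule, whereas all 5 genes of the pyruvate dehydrogenase complex did. The difference between the complexes was not tested.

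Succinyl-CoA ligase pairs a common alpha subunit with an ADP-forming or a GTP-forming beta subunit, and the beta subunits differed in direction. Sucla2, the ADP-forming subunit that prevails in muscle and brain, read 11.47 and 10.42 (-1.05, 2.08-fold lower). Suclg2, the GTP-forming subunit that prevails in liver and kidney, read 9.96 and 10.32 (0.36), with another probe set at 0.002. Subtracting the difference of Suclg2 from that of Sucla2 gave -1.42. Suclg1, the alpha subunit, read 11.15 and 10.49 (-0.66), between the beta subunits. Sucla2 had 2 further probe sets under the floor, and averaging them in took it to -0.35, within the size rule.

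Of the closing steps of the cycle, Mdh2 passed the size rule and Fh1 did not. Fh1, fumarase, read 10.83 and 10.43 (-0.40) on its only probe set. Mdh2, the mitochondrial malate dehydrogenase, read 12.40 and 11.60 (-0.80, 1.74-fold lower), with another probe set at -0.50.

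**Figure D3:**
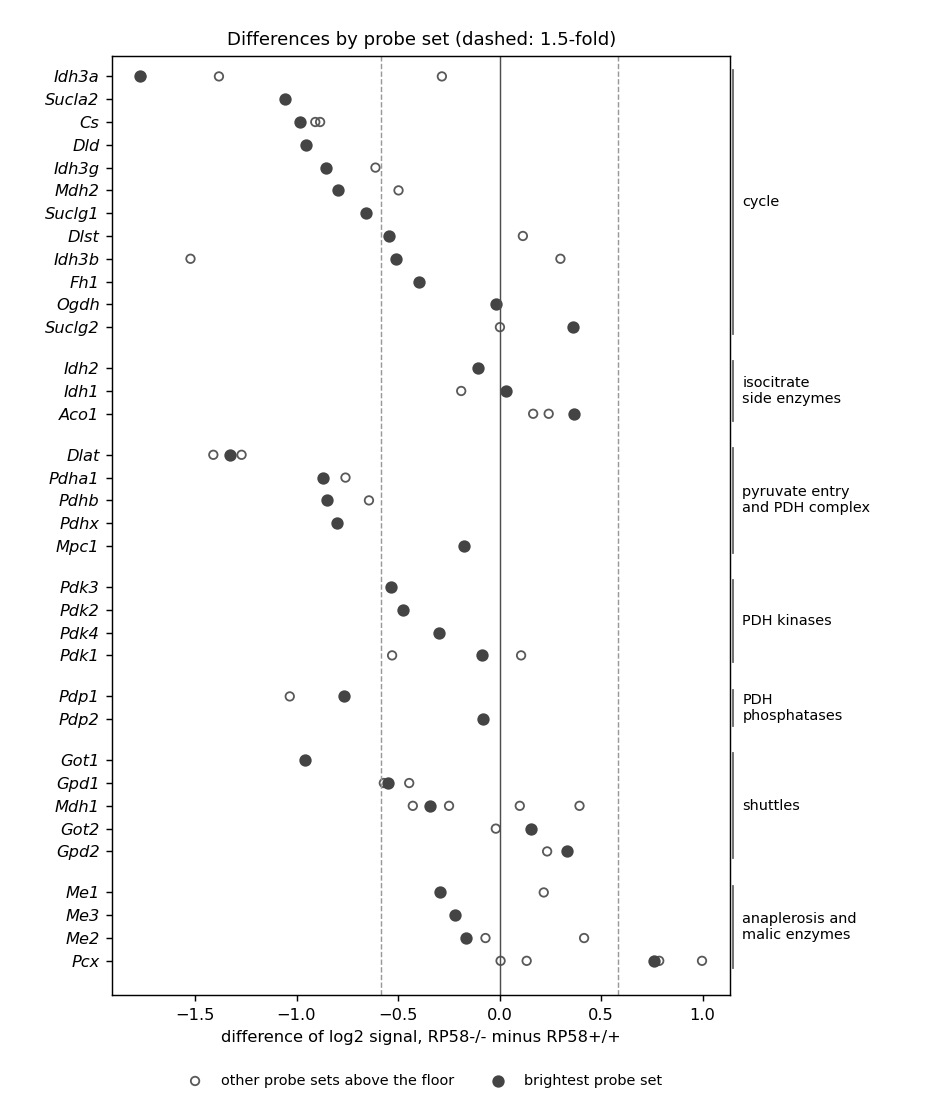
Difference of log2 signal (x axis, RP58-/- minus RP58+/+) of every probe set above the floor for 35 genes (rows, grouped by role); filled points are the brightest probe set of a gene, open points its other probe sets, and dashed lines mark 1.5-fold. The probe sets of Dlat (-1.41 to -1.27) and Cs (-0.98 to -0.88) lie close together, and those of Idh3b (-1.52 to 0.30) and Mdh1 (-0.43 to 0.39) straddle 0.

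The 35 genes had 72 probe sets above the floor, of which 51 lay below 0. Of 22 genes with more than 1 such probe set, 14 had all of them on the same side of 0 and 8 did not. Among the 13 lower genes, 8 had more than 1, and all probe sets of these 8 were below 0. For 6 of the 8, every probe set also passed the size rule, the exceptions being Idh3a and Mdh2.

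Genes of the shuttles were mixed, and cytosolic and mitochondrial partners differed, though not in the same order in every pair. Got1, the cytosolic aspartate aminotransferase, read 9.40 on the array labelled RP58+/+ and 8.45 on the array labelled RP58-/- (-0.96, 1.94-fold lower) on its only probe set. Got2, its mitochondrial partner, read 11.25 and 11.41 (0.15), with another probe set at -0.02. Subtracting the difference of Got2 from that of Got1 gave -1.11. Mdh1, the cytosolic malate dehydrogenase, read 13.12 and 12.78 (-0.34). Its 2 next brightest probe sets were at -0.43 and -0.25, and 2 dim ones were at 0.39 and 0.10. In this pair the mitochondrial partner, Mdh2, was the lower one at -0.80. In the glycerol phosphate shuttle, Gpd1, the cytosolic enzyme, read 8.83 and 8.28 (-0.55), and its further probe sets above the floor were at -0.57 and -0.44. Gpd2, the enzyme on the inner mitochondrial membrane, read 6.28 and 6.61 (0.33), with another probe set at 0.23. The partners of this shuttle thus lay on opposite sides of 0, though neither passed the size rule.

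Pyruvate carboxylase was the only one of the 35 genes that was higher by the size rule (2.86%, against 3.83% of all genes). This count is below the share of all genes and is not a result about the list. Pcx makes oxaloacetate from pyruvate and is a gluconeogenic enzyme of liver. It read 9.51 on the array labelled RP58+/+ and 10.27 on the array labelled RP58-/- (0.76, 1.69-fold higher), which is rank 270 from the highest of 14094 genes. The array carries 4 control probe sets along this transcript. The 3' one differed by 0.79 and the 5' one by 0.13, and the 2 between them by 0.01 and 1.0. The difference at the 3' end thus exceeded that at the 5' end by 0.65, while the same measure was -0.06 for Gapdh and 0.22 for Actb. The mean over the probe sets of Pcx was 0.54, within the size rule. Markers of liver were higher on the same array, with 9 of 14 past the size rule and a median of 0.82. Their part in the difference of Pcx was not tested.

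The malic enzymes, which convert malate to pyruvate, were all within the size rule. Me1, the cytosolic NADP-linked enzyme of fat synthesis, read 8.13 and 7.84 (-0.29), with another probe set at 0.22. Me2 read 6.65 and 6.49 (-0.17), with other probe sets at 0.42 and -0.07. Me3 read 6.32 and 6.10 (-0.22). The probe sets of Me1 and Me2 disagreed in sign, so no direction can be given for either.

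**Figure D4:**
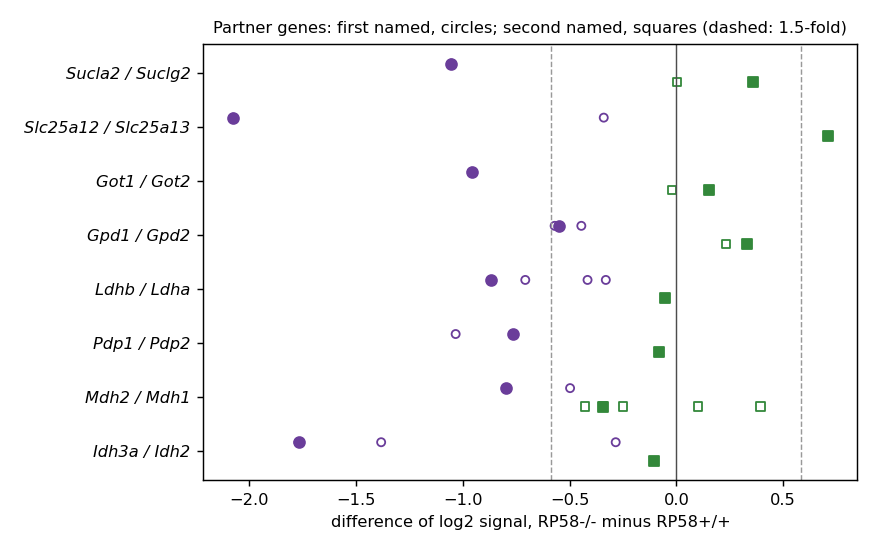
Difference of log2 signal (x axis, RP58-/- minus RP58+/+) for 8 pairs of partner genes (rows), the first named as purple circles and the second as green squares; filled marks are the brightest probe set, open marks other probe sets above the floor, and dashed lines mark 1.5-fold. The brightest probe set of the first named gene lies left of that of its partner in each pair, from -2.08 against 0.71 for Slc25a12 and Slc25a13 to -0.80 against -0.34 for Mdh2 and Mdh1; the pairs were chosen with these values known.

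Further genes of the pathway, from a list of 26 of which 24 had a value, showed the same unevenness. Of the 24, 7 (29.2%) were lower and 2 (8.33%) were higher, against 6.51% and 3.83% of all genes, and the median was -0.24. A count of 2 higher among so few genes is not a result about the list. The 4 succinate dehydrogenase subunits, which carry the next step of the cycle and are part of the respiratory chain, ran from -0.63 to -0.50. On their brightest probe sets, Sdha (-0.63) and Sdhb (-0.63) passed the size rule, and Sdhc (-0.56) and Sdhd (-0.50) did not. Further probe sets above the floor were at -0.56 for Sdha, -0.32 for Sdhc and -0.47 for Sdhd, all within the size rule. Lias makes the lipoate cofactor of Dlat and Dlst, and it read 9.53 and 8.76 (-0.78). Ldhb, the heart form of lactate dehydrogenase, read 10.25 and 9.39 (-0.87), the lowest of its 4 probe sets, which ran up to -0.33. Ldha, the form that favours lactate, read 12.55 and 12.50 (-0.05) on its only probe set. Gpt2, the mitochondrial alanine aminotransferase, was at -0.63, with 4 probe sets from -1.03 to 0.12. Pck1, the gluconeogenic enzyme of liver and fat, read 6.49 and 7.16 (0.66).

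The carriers of the malate-aspartate shuttle gave the widest contrast. Slc25a12 (aralar), the aspartate-glutamate carrier of muscle and brain, read 10.72 and 8.64 (-2.08, 4.21-fold lower), rank 39 from the lowest of 14094 genes. A dimmer probe set of Slc25a12 was at -0.34. Slc25a13 (citrin), the form that prevails in liver, read 8.85 and 9.56 (0.71, 1.63-fold higher). Slc25a11, the oxoglutarate-malate carrier of the same shuttle, read 10.13 and 9.48 (-0.65). Slc25a12 and Sucla2 lay on the same side of 0 as the muscle fibre markers, and Slc25a13 and Suclg2 on the side of the liver markers, whose part was not tested.

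Among 13 regulators of mitochondrial genes the median was -0.06, and 2 (15.4%) were lower and 0 higher, against 6.51% and 3.83% of all genes. A count of 2 among so few genes is not a result about the regulators as a group. Esrra, a nuclear receptor that binds many genes of the cycle, read 8.20 and 7.47 (-0.72). Its coactivator Ppargc1a read 7.28 and 6.65 (-0.63), and its 5 probe sets ran from -1.11 to -0.19. Tfam, the packaging and transcription factor of mitochondrial DNA, was at -0.48, with a dimmer probe set at -0.002. Gabpa was at -0.47. Hif1a was at -0.45, with other probe sets at -0.03 and 0.44. Nrf1 was at -0.06, with other probe sets at 0.17 and 0.21, and Ppargc1b was at -0.16. Of the 13 regulators, 8 lay below 0 and 5 above, with Esrrb highest at 0.35. Ppara was at 0.01 on its brightest probe set, with others at 0.49 and 0.76.

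**Figure D5:**
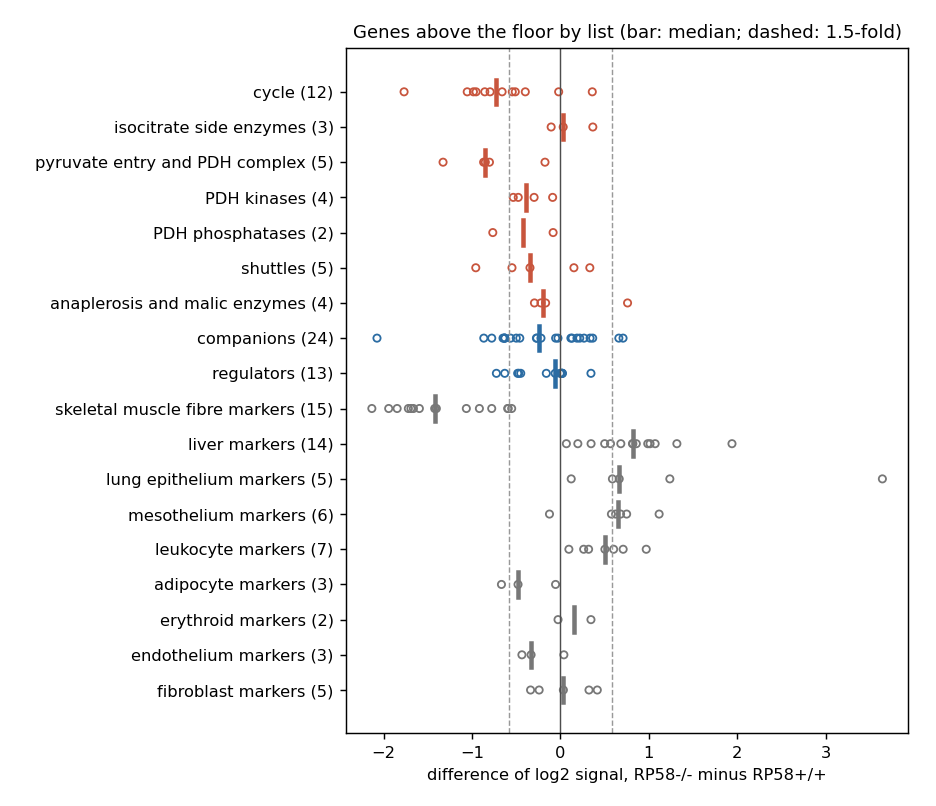
Difference of log2 signal (x axis, RP58-/- minus RP58+/+) of each gene above the floor (open points) in the role groups (red), the companion and regulator lists (blue) and lists of cell type markers (grey), with the number of genes in brackets, bars at the median and dashed lines at 1.5-fold. The bars of the cycle (-0.73) and the pyruvate group (-0.85) lie right of that of the muscle fibre markers (-1.42). The bar of the liver markers lies further right (0.82).

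Markers of cell types also differed between the arrays, in both directions. The muscle fibre markers had log2 signals of 7.51 to 14.20 on the array labelled RP58+/+ and 5.85 to 13.61 on the array labelled RP58-/-, and Actn3 (-2.13) and Myh8 (-1.94) differed most. Liver markers ran from 8.96 to 14.23 and from 9.78 to 14.30, led by Bhmt (1.94) and Hpx (1.32), so liver transcripts were plentiful on both arrays. Alb (0.07) and Afp (0.20) differed least of the 14 liver markers, with Alb near the highest signal on either array (14.39). Lung epithelium markers had a median of 0.67, with 4 of 5 above the floor higher, Sftpc (3.64) and Ager (1.24) most so, and Nkx2-1, a defining factor of lung, under the floor on both. Mesothelium markers had a median of 0.65 (4 of 6 higher, with Krt19 at 1.12 and Krt7 at 0.75), while Wt1 lay below 0 at -0.12. Leukocyte markers had a median of 0.50 (3 of 7 higher, with Camp at 0.97 and Ngp at 0.71). Adipocyte markers had a median of -0.48 over 3 genes, with Cidea at -0.67 and Fabp4 at -0.48, and the defining marker Adipoq under the floor on both. Endothelium markers had a median of -0.33 over 3 genes (Pecam1 -0.44, Cdh5 -0.33), fibroblast markers of 0.03 over 5 (Col1a1 0.42, Pdgfra -0.34) and erythroid markers of 0.16 over 2 (Alas2 0.35, Slc4a1 -0.03). The part of these cell types in the differences of the 35 genes was not tested.

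Since the arrays also differed in Xist, X-linked genes were set apart. Pdha1, Idh3g and Pdk3 lie on the X chromosome in the RefSeq promoter table (GRCm38.p6). Over 388 X-linked genes above the floor the median difference was -0.06 and 12.4% were lower, against -0.0003 and 6.31% of 10917 other genes with an entry. Of the 32 genes of the pathway that the table does not place on X, 11 (34.4%) were lower, with a median of -0.37.

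Promoter sequence was examined because several of these genes were lower together on the array labelled RP58-/-. RefSeq windows (GRCm38.p6) of 250 bases before the transcription start were found for 32 of the 36 genes, taking the first window listed for each gene. Idh3a, Pdp1, Gpd1 and Me2 were without an entry. Both strands were searched for the core of the RP58 site (ACATCTG), which contains an E-box, a core site of the estrogen-related receptors (AAGGTCA), a core of the NRF1 site (GCGCATGC), the CCAAT box (CCAAT) and the GC box (GGGCGG). None of these motifs contains another. The windows shown, 5′ to 3′ on the strand of the gene, are those of the lowest genes with an entry, Dlat (chr9:50659781-50660030, minus strand), Sucla2 (chr14:73552536-73552785, plus strand) and Cs (chr10:128337477-128337726, plus strand). For contrast they are followed by the genes of the same roles that differed least, Ogdh (chr11:6291347-6291596, plus strand, the first of 6 windows) and Mpc1 (chr17:8283537-8283786, plus strand, the first of 2 windows). Capitals mark every match to any of the motifs on either strand.
Dlat: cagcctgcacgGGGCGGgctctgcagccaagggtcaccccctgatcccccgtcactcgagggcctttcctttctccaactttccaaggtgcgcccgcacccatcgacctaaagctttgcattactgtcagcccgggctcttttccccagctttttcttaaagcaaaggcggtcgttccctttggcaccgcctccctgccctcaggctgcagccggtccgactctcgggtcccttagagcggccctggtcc
Sucla2: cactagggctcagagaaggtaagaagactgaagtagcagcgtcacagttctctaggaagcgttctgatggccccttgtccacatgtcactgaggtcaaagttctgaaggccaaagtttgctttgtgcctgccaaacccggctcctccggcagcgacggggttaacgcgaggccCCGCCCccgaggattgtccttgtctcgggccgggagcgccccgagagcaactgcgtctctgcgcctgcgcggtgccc
Cs: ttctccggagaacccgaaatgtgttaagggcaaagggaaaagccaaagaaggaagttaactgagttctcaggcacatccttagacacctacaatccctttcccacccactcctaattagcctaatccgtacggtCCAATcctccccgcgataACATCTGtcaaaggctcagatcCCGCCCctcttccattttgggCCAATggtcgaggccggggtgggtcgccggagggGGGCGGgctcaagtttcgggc
Ogdh: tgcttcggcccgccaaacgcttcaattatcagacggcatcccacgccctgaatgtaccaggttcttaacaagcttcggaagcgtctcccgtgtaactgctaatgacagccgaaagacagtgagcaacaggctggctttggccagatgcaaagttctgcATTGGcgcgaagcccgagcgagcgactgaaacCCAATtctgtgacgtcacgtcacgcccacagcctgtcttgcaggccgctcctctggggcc
Mpc1: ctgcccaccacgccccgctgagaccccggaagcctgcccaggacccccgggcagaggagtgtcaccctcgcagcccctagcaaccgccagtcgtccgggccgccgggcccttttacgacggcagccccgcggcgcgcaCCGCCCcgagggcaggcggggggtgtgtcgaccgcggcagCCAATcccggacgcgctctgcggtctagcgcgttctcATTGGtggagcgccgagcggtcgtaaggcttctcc

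The RP58 core was found in the windows of Cs, 98 to 92 bases before the start, and Idh1, 86 to 80 bases before it on the other strand. These are 2 of 32 genes, and 3.8% of 27025 genes with a window held it. Of the 2, Cs was lower (-0.98) and Idh1 was at 0.03. The estrogen-related receptor core was in the window of Got1 alone, 245 to 239 bases before the start, and in 4.05% of all windows. The NRF1 core was in 0 of 32 windows and in 2.32% of all. The CCAAT box was in 18 of 32 windows, against 34.5% of all, and in 4 of the 11 lower genes that had a window. The GC box was in 20 of 32, against 32.9% of all, and in 6 of these 11. The windows of the 32 genes also held more G and C, with a median of 61.6% against 52.0%. Only the exact letters of each motif were searched, so variants of a site were not counted. A match of letters does not show that a factor binds there, and its absence from these windows says nothing about other parts of a gene.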

How the data were processed

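Total RNA of diaphragm muscle was hybridised to 1 Affymetrix array per genotype. The deposited values are log2 signals that the authors computed with RMA (background correction, quantile normalisation, summary per probe set), per the series' design text, and the submitters' processing notes name Affymetrix Expression Console 1.1. Quantile normalisation evens out differences in total mRNA. The design text names a smaller array type than the one whose annotation the 45101 deposited probe sets matched.

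Of these, 34958 carried 1 gene symbol and 932 several, and the latter were left out. Control probe sets that carry a symbol, those of Pcx among them, were kept, as the choice by symbol requires. Differences, counts and medians were computed with pandas 2.3.3 and NumPy 2.4.6, and loess (fraction 0.3) with statsmodels 0.14.6. The counting was tested on simulated data. The genes, lists, partner pairs and motifs were chosen with earlier results of these data known. All genes of the pathway are named. Of the companion and regulator lists, those past the size rule (at least the 3 of largest difference) were named, and of each marker list the 2 of largest difference above the floor. Any other gene named, and the motifs, were picked with their values in view. Alternatives were the mean over probe sets, other floors, centrings and size rules, fewer kinds of probe set, and scaling to the poly-A spike-ins.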

Additional observations from a re-analysis of the deposited data

How the results depend on the processing

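The count of 13 lower genes stayed at 13 with no floor, with a floor at the 60th percentile, with arrays centred on their medians, with loess centring, without _s_at, _x_at and _a_at probe sets and with the mean over probe sets above the floor, an alternative added after the data were seen. Without those kinds of probe set 29 genes were left, Mdh2 had no value and Idh3b passed at -1.52, so the 13 were not the same genes. The count was 11 with the mean over all probe sets, where Dld (-0.45) and Sucla2 (-0.35) no longer passed, and 3 under the 2-fold rule (Idh3a, Dlat and Sucla2), which 2.31% of all genes passed downwards and 0.908% upwards. The count of 1 higher gene (Pcx) became 0 with either mean and under the 2-fold rule. The 11 companion and regulator genes past the size rule became 4 with the mean over all probe sets and 8 with the mean over probe sets above the floor. They became 8 without _s_at, _x_at and _a_at probe sets, and 1 under the 2-fold rule, which can only lower a count. The mean over all probe sets takes in dim ones under the floor, such as that of Esrra at 0.35. The brightest probe sets of Sdha, Lias, Ldhb, Gpt2 and Ppargc1a were of the kinds left out. The median of -0.48 ran from -0.54 to -0.37 under the alternatives other than spike-in scaling. Scaled to the poly-A spike-ins it was 0.27, and relative to the median of all genes on that scale -0.47. Of the 14 genes past the size rule, 11 passed it in the same direction in every alternative that kept the 1.5-fold rule and the deposited scale and gave them a value. No paired analysis was possible because each genotype has 1 array. The absence of replicate arrays limits every value. Gpd2, Me2, Me3 and Pdp2 had the weakest mean signals of the 35 genes, from 6.21 (Me3) to 6.67 (Pdp2), against the floor of 5.52.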
